A study of Homo sapiens with 6 samples.

Results

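The genes described here are 35 genes of megakaryocytes and platelets, given as a list of symbols and looked up in a table of 58364 genes with values. Of the 35 symbols, 34 stood in the table, and ESAM-AS1 was found through its gene ID under the name AP000866.2. VWF, SELP, MMRN1 and THBS1 are also made by endothelial cells and were kept apart as 4 genes from the other 31. Expression was given as FPKM, the fragments counted on a gene per kilobase of transcript, scaled to the mapped fragments of its library.

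Megakaryocytes arise from hematopoietic progenitors, which in turn emerge from hemogenic endothelium through the endothelial-to-hematopoietic transition. Maturing megakaryocytes load alpha granules with chemokines and adhesive proteins, place the GPIb-IX-V receptor for von Willebrand factor and the integrin αIIbβ3 receptor for fibrinogen on their surface, and shed platelets. GATA1, NFE2, FLI1 and RUNX1 are known regulators of these genes, and a low level of the αIIb chain, CD41, is already found on early embryonic hematopoietic progenitors.

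All 6 RNA-seq libraries came from H1 hESCs, a human embryonic stem cell line, collected at day 8 of hematopoietic differentiation. WT H1 cells gave 2 libraries, numbered replicate 1 and 2. H1 cells with both MSX2 alleles disrupted by CRISPR-Cas9 in exon 2 (MSX2-/-) gave 4 libraries, 2 of clone 1# and 2 of clone 2#, again numbered 1 and 2. MSX2 encodes a homeobox transcription factor. Each clone is 1 edited line, so that a difference from WT can belong to the line as well as to the deletion, and the labels do not say that replicates are separate cultures. The labels call the MSX2-/- cells CD31+ and leave that word out for WT, while the study describes both as CD31+. PECAM1, which encodes CD31, ranged from 186 to 258 FPKM over the 6 libraries (a gene chosen here after its values were seen). Of 20 endothelial markers tested, 16 had a negative and 4 a positive log2 difference between MSX2-/- and WT. PECAM1 therefore does not stand for them all. The labels' growth protocol speaks of cells with or without HAND1 overexpression, which the labels of these libraries do not mention.

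Promoters are shown for 4 of the genes, chosen to stand for the αIIb subunit of the fibrinogen receptor, the gene with the largest difference, the gene that passed with the block whichever library was left out, and the gene with 1 divergent library. The set of RefSeq promoters used here (GRCh38.p14) held 28 of the 35 genes (not PF4, GP1BA, ITGB3, VWF, F2R, SRGN or BIN2), 41 start sites in all. Each sequence is up to 150 bases, upstream of the annotated start and outside annotated exons, and reads 5′ to 3′ on the strand of its gene. Capitals mark matches, on either strand, to letters of the kind that GATA factors and ETS factors can bind, and binding was not measured. The GATA letters searched were AGATAA with its variant AGATAG and, starting with T, TGATAA with its variant TGATAG. The ETS letters searched were CAGGAA, which reads as TTCCTG on the other strand, and the variant CCGGAA.
ITGA2B, chr17:44389650-44389799, minus strand: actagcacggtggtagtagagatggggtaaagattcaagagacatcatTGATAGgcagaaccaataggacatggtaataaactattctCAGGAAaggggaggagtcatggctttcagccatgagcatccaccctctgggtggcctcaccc
MMRN1, chr4:89879361-89879510, plus strand: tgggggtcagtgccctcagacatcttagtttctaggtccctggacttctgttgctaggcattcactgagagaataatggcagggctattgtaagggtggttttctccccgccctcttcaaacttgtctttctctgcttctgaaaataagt
FERMT3, chr11:64206528-64206677, plus strand: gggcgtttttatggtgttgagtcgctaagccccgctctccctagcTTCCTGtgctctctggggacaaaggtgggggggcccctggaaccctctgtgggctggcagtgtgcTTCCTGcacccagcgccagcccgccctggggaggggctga
RGS18, chr1:192158307-192158456, plus strand: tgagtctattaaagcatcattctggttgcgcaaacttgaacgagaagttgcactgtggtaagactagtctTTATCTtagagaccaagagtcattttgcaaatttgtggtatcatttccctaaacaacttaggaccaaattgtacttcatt
ITGA2B held TGATAG and CAGGAA, FERMT3 held CAGGAA at 2 positions and RGS18 held AGATAA, both read on the opposite strand, and the MMRN1 window shown held none of these letters. The window of another RefSeq start of MMRN1, not shown, held CAGGAA at 2 positions, TGATAA and the homeobox letters TAATTG. That window ended 130 bases before its start. In the 150 bases directly before that start only CAGGAA was found, at 2 positions. The counts that follow use the 150 bases directly before each start, exons included, so they can differ from the windows shown, and FERMT3 had TGATAA 29 bases before its start, beyond the end of its window. In these bases, GATA letters stood in 8 of the 41 member entries (19.5%) and in 13.3% of 35116 RefSeq promoters. ETS letters stood in 17 of 41 entries (41.5%), of 12 genes, and in 25% of all promoters. The homeobox letters TAATTG stood in 2 of 41 entries, GP6 and LTBP1, and in 3.8% of all promoters. The letters were chosen with the sequences in view, start sites of 1 gene can overlap, and a match is not evidence of binding.

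The megakaryocyte and platelet genes ranged from values listed at 0 to 258 FPKM. Over the 6 libraries 10 genes had a mean of at least 10 FPKM, 14 lay between 1 and 10, 3 between 0.5 and 1, and 8 under 0.5. The highest were CD9, F2R and FERMT3, each above 60 FPKM in every library. Several genes of mature megakaryocytes and platelets were low. PPBP, a platelet chemokine, stood at 0.213 FPKM in WT replicate 1 and was listed at 0 in the other 5 libraries. PF4, the platelet factor 4 chemokine, had 2.26 and 3.41 FPKM in WT, 1.30 and 1.81 in 1#, and 1.87 and 2.42 in 2#. TUBB1, the megakaryocyte β-tubulin, did not exceed 0.644 FPKM, P2RY12, the platelet ADP receptor, did not exceed 0.0812, and GP6, the collagen receptor, did not exceed 0.288. Other genes of the mature lineage were higher, among them ITGA2B at 26.6 to 55.4 FPKM and GP1BA at 3.16 to 11.7.

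**Figure D1:**
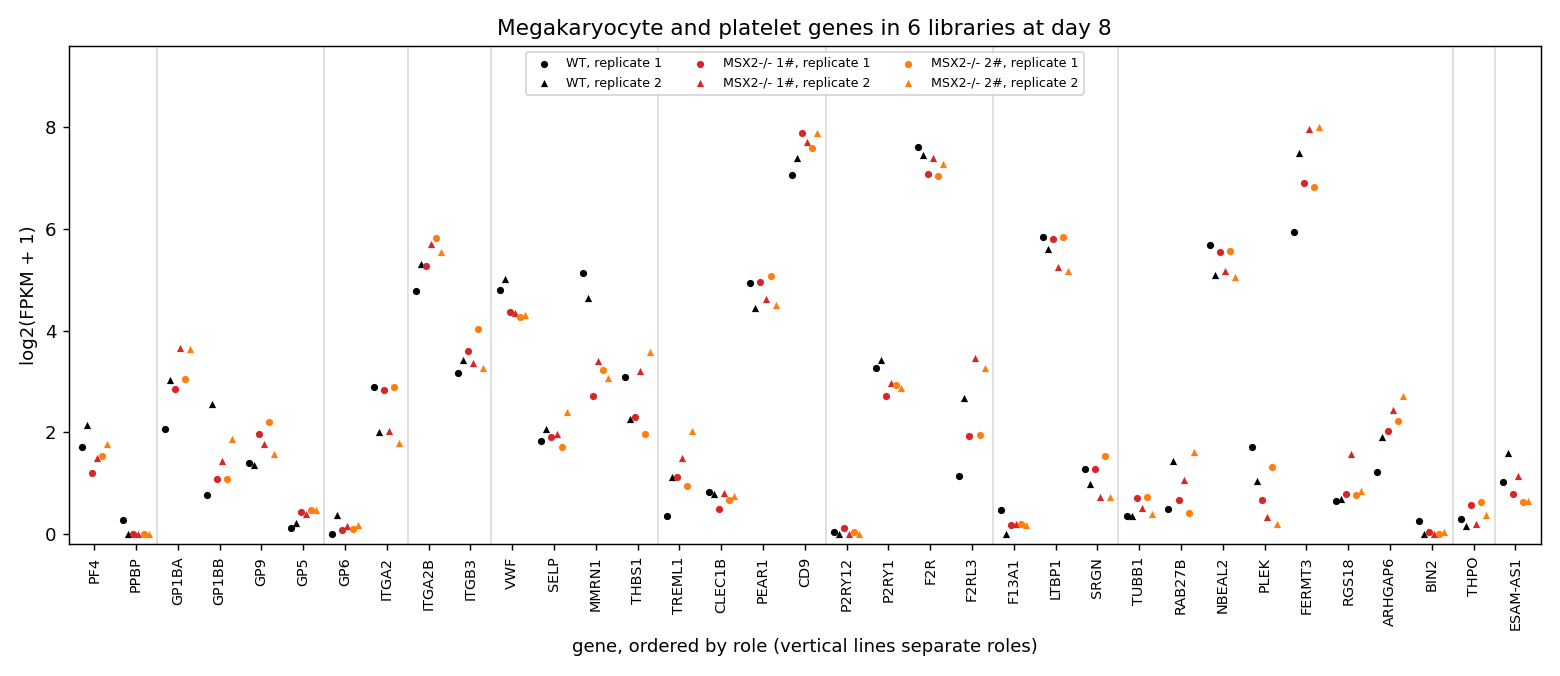
Expression of the 35 genes in each library as log2(FPKM + 1) on the vertical axis, genes ordered by role on the horizontal axis, circles for replicate 1 and triangles for replicate 2. CD9, F2R and FERMT3 stand at the top and 8 genes lie near 0, and for FERMT3 the triangles lie above the circles of the same genotype.

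MSX2 itself was checked first. Its mRNA stood at 3.64 and 1.44 FPKM in WT, at 18.002 and 5.62 in 1# and at 31.8 and 6.69 in 2#. The transcript was higher in all 4 libraries labelled MSX2-/-, so its level does not check the labels, and every direction below rests on them. MSX2 differed by a log2 difference of 1.99 (SE 0.69, limma adjusted p = 0.309, adjusted p = 0.0107 with the replicate number as a block). Fewer cells of a type and less RNA per cell cannot be told apart in such bulk libraries. The number of reads per library is not given in the table, so the counting error of low values is unknown.

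A limma fit on log2(FPKM + 1) compared the 4 MSX2-/- libraries with the 2 WT libraries over 15895 genes whose mean was at least 0.5 FPKM, with p-values adjusted over all of them and a threshold of 0.05. Of the 35 genes, 27 passed that filter, and a gene that is high in 1 group only can pass through that group. MMRN1 fell and no other member passed in either direction, with 1 of 27 lower (0.321% of all genes tested) and 0 of 27 higher (0.963%). Without adjustment 7 of the 27 had a p under 0.05, as had 11.8% of all genes tested. The median log2 difference was -0.02 over the 27 genes, with 13 positive and 14 negative, beside 0.01 over all genes.

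Replicate 1 and replicate 2 differed in their own right. In a fit with genotype, 7 of the 27 genes were higher in replicate 2 than in replicate 1 (15.6% of all genes tested) and 6 were lower (18.9%). WT, 1# and 2# share these numbers, and the labels give each number a set letter without saying what it stands for. Compared within the numbers, by a fit with the number as a block, 5 members rose (6.11% of all genes tested) and 3 fell (3.74%). GP1BA, F2RL3, FERMT3, CD9 and ARHGAP6 rose, and MMRN1, VWF and P2RY1 fell. Both counts are above the share of all genes, and that excess was not tested. Among the 23 tested genes not shared with endothelium 5 rose and P2RY1 fell, and of the 4 shared genes MMRN1 and VWF fell.

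**Figure D2:**
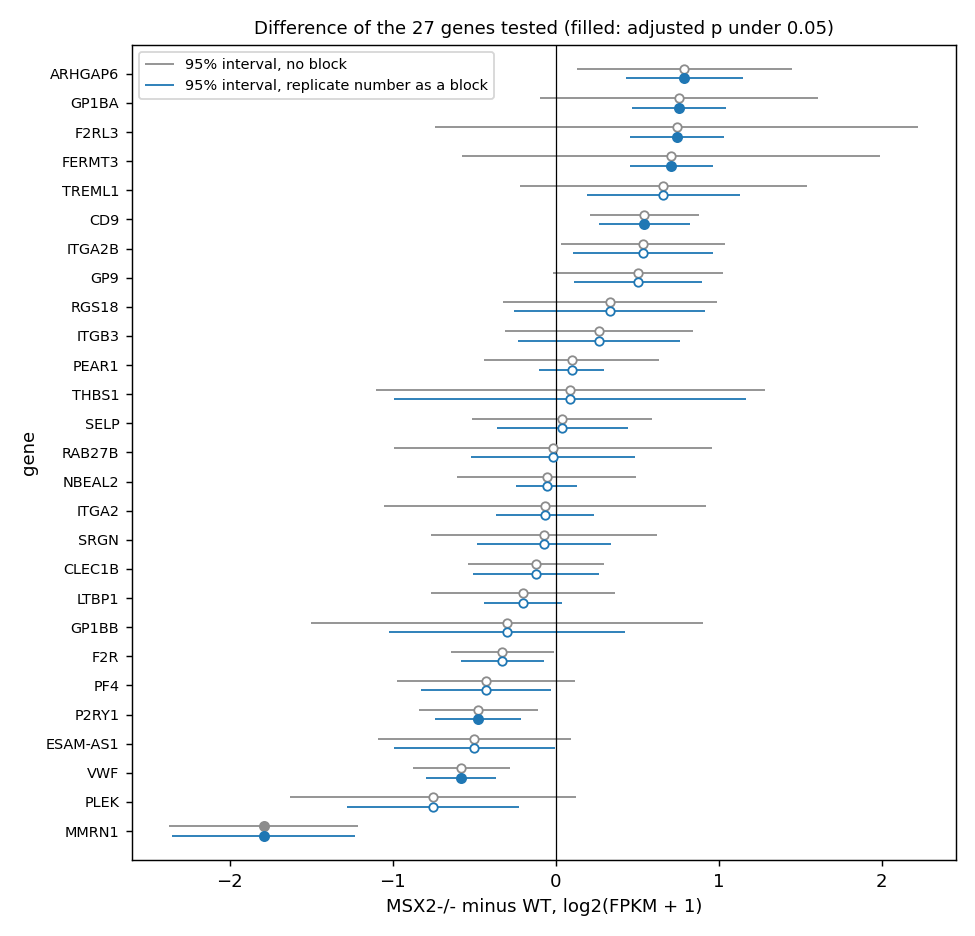
Difference between MSX2-/- and WT for the 27 genes tested, as log2(FPKM + 1) on the horizontal axis, with 95% intervals from limma without (grey) and with (blue) the replicate number as a block, and filled points for an adjusted p under 0.05. MMRN1 is filled in both fits, and 7 more genes are filled with the block only, of which F2RL3 and FERMT3 have wide grey intervals.

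Without regard to number, all 4 MSX2-/- libraries lay above both WT libraries for 4 of the 27 genes (12.1% of all genes tested) and below both for 4 (9.19%). The 4 that lay above were CD9, ARHGAP6, GP9 and RGS18, and the 4 that lay below were MMRN1, VWF, P2RY1 and F2R. All 4 MSX2-/- libraries exceeded the WT library of the same number for 10 genes (23.6% of all genes tested) and fell short of it for 7 (21.4%). A count of 4 among 27 is near the share of all genes, and a count of 10 among 27 is above it, which was not tested.

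The GPIb-IX-V complex holds platelets on von Willebrand factor under flow. GP1BA, its ligand-binding α chain, had 3.16 and 7.17 FPKM in WT, 6.24 and 11.7 in 1#, and 7.29 and 11.4 in 2#. The groups overlapped across numbers, while within each number both clones were higher than WT, 2.14-fold in replicate 1 and 1.61-fold in replicate 2. Its log2 difference was 0.76 (SE 0.36, adjusted p = 0.497), and with the block the SE was 0.12 and the adjusted p was 0.0150. That call was kept without WT replicate 2 or 2# replicate 1 and lost without any of the other 4 libraries (adjusted p up to 0.0931). GP1BA (chr17:4932297-4935030 in GENCODE, GRCh38) overlaps CHRNE on the other strand, which stood at 1.85 and 2.11 FPKM in WT and at 2.52 to 2.75 in MSX2-/- cells. The use of strand is not stated, so the GP1BA value is uncertain.

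GP9, the subunit that the complex needs to reach the surface, had 1.62 and 1.56 FPKM in WT, 2.91 and 2.42 in 1#, and 3.58 and 1.96 in 2#. All MSX2-/- libraries lay above both WT libraries, with a log2 difference of 0.50 that missed the threshold (95% interval -0.01 to 1.02, adjusted p = 0.442, 0.110 with the block). GP5, the V subunit, lay under 0.5 FPKM and was not tested, with 0.0882 and 0.162 FPKM in WT and 0.319 to 0.386 in the MSX2-/- libraries, which did not overlap. GP1BB, the β chain, took no shared direction. It had 0.690 and 4.88 FPKM in WT, 1.11 and 1.68 in 1#, and 1.11 and 2.63 in 2#, and its span is shared on the same strand with SEPT5 and the readthrough SEPT5-GP1BB, so its value is uncertain.

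Integrin αIIbβ3 binds fibrinogen and links platelets to each other. ITGA2B, the αIIb chain, had 26.6 and 38.5 FPKM in WT, 37.6 and 50.9 in 1#, and 55.4 and 45.7 in 2#. Each MSX2-/- library exceeded the WT library of its number, by 1.75-fold and 1.25-fold on average, although 1# replicate 1 lay below WT replicate 2. The log2 difference of 0.54 missed the threshold (95% interval 0.04 to 1.04, adjusted p = 0.379, 0.118 with the block). ITGB3, the β3 chain that αV integrins use as well, had 8.02 and 9.71 FPKM in WT, 11.0 and 9.35 in 1#, and 15.3 and 8.61 in 2#. Both clones were above WT in replicate 1 and below it in replicate 2. An interaction of genotype and number, fitted over all genes, passed for 0 of the 27 members (0.0189% of all genes tested). ITGA2, the α2 chain of a collagen receptor, differed by -0.07 (95% interval -1.06 to 0.92) and followed the replicate number, with 6.10 to 6.41 FPKM in replicate 1 and 2.43 to 3.09 in replicate 2 whatever the genotype.

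Among the genes shared with endothelium, MMRN1 showed the largest difference of the 27. MMRN1 encodes multimerin 1, a carrier of factor V in platelet granules that endothelial cells also store. It had 34.3 and 23.8 FPKM in WT, 5.51 and 9.49 in 1#, and 8.31 and 7.43 in 2#, so that the groups stood far apart. The mean was 29.1 ± 7.38 FPKM (SD, n = 2) in WT and 7.69 ± 1.68 (n = 4) in MSX2-/- cells, a log2 difference of -1.79 (SE 0.24, adjusted p = 0.0301, 0.00799 with the block). Without the block the adjusted p lay between 0.0752 and 0.203 when 1 library was left out, whichever it was, and with the block the call was lost only without WT replicate 1 (adjusted p = 0.0749). MMRN1 lies at chr4:89879532-89954629 (GENCODE, GRCh38, plus strand).

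VWF, von Willebrand factor, had 26.7 and 31.1 FPKM in WT, 19.7 and 19.2 in 1#, and 18.2 and 18.8 in 2#. The 4 MSX2-/- libraries stood close together and below both WT libraries, with a log2 difference of -0.58 (SE 0.12, adjusted p = 0.103) that passed with the block (adjusted p = 0.0130). It was lost from the blocked fit without WT replicate 2, 1# replicate 2 or 2# replicate 2 (adjusted p up to 0.0795). SELP, the granule adhesion molecule P-selectin, did not separate, with 2.56 and 3.17 FPKM in WT and 2.25 to 4.24 in MSX2-/- cells. THBS1, thrombospondin 1, had 7.46 and 3.82 FPKM in WT, 3.94 and 8.19 in 1#, and 2.91 and 11.0 in 2#, and thus lay below WT in replicate 1 and above it in replicate 2. Endothelial markers moved beside MMRN1 and VWF. Of 20 tested, 3 fell without the block (0.321% of all genes tested), and 8 fell (3.74%) and 2 rose (6.11%) with it. None was listed at 0, and their summed expression was 9717 to 10742 FPKM in WT and 8147 to 9115 in MSX2-/- cells. The part of this shift in the lower MMRN1 and VWF was not tested.

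Of the other surface proteins, CD9 rose with the block and the rest did not pass. CD9, a tetraspanin of platelets that many other cells carry, had 132 and 167 FPKM in WT, 236 and 207 in 1#, and 193 and 234 in 2#. All MSX2-/- libraries were above both WT libraries, with a log2 difference of 0.54 (SE 0.14, adjusted p = 0.165), and the difference passed with the block (adjusted p = 0.0361). Leaving out any 1 library ended that call (adjusted p = 0.0576 to 0.216). TREML1, an alpha-granule receptor of the megakaryocyte lineage, had 0.268 and 1.17 FPKM in WT, 1.17 and 1.80 in 1#, and 0.910 and 3.07 in 2#. It exceeded WT within both numbers and missed the threshold (log2 difference 0.66, 95% interval -0.22 to 1.54, adjusted p = 0.588, 0.0878 with the block). PEAR1, a platelet and endothelial aggregation receptor, differed by 0.10 (95% interval -0.44 to 0.64), and CLEC1B, the podoplanin receptor CLEC-2, by -0.12 (95% interval -0.54 to 0.30).

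The receptors for soluble agonists went different ways. P2RY1, an ADP receptor, had 8.58 and 9.78 FPKM in WT, 5.59 and 6.83 in 1#, and 6.57 and 6.32 in 2#. It lay below both WT libraries in all 4, with a log2 difference of -0.47 (SE 0.15, adjusted p = 0.276, 0.0472 with the block). The blocked call was lost without any 1 of the libraries (adjusted p = 0.0681 to 0.187). F2R, the thrombin receptor PAR1, which endothelial cells also carry, had 193 and 174 FPKM in WT and 130 to 167 in MSX2-/- cells, without passing the threshold (log2 difference -0.33, 95% interval -0.64 to -0.01, adjusted p = 0.404, 0.112 with the block).

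F2RL3, the thrombin receptor PAR4, had 1.21 and 5.34 FPKM in WT, 2.79 and 10.1 in 1#, and 2.85 and 8.56 in 2#. Replicate 2 was the higher in every line, and within each number both clones exceeded WT, 2.32-fold and 1.74-fold. The log2 difference of 0.74 had an SE of 0.62 and an adjusted p of 0.765, and with the block an SE of 0.12 and an adjusted p of 0.0160. That call was kept without 2# replicate 2 and lost without each of the other 5 libraries (adjusted p up to 0.0915). The 2 thrombin receptors thus stood on opposite sides of WT within each number, and the difference between them was not tested.

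No gene of the remaining granule cargo passed in either fit. LTBP1, a carrier of latent TGFβ, differed by -0.20 (95% interval -0.76 to 0.36), and SRGN, the granule proteoglycan serglycin, by -0.07 (95% interval -0.77 to 0.62). F13A1, the factor XIII A chain, was listed at 0 in WT replicate 2 and did not exceed 0.385 FPKM elsewhere. PF4 was lower than WT in each MSX2-/- library of the same number and did not pass the threshold (log2 difference -0.43, 95% interval -0.97 to 0.12, adjusted p = 0.565, 0.166 with the block).

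Among cytoskeletal, granule and signalling proteins, FERMT3 and ARHGAP6 rose with the block. FERMT3 encodes kindlin-3, which activates integrins in platelets and leukocytes. It had 60.4 and 180 FPKM in WT, 119 and 250 in 1#, and 113 and 258 in 2#. Replicate 2 was far above replicate 1 in every line, so that the groups overlapped, and within the numbers both clones exceeded WT by 1.92-fold and 1.41-fold. Its log2 difference was 0.71 (SE 0.54, adjusted p = 0.731), and with the block the SE was 0.10 and the adjusted p was 0.0122. That call held when any 1 of the 6 libraries was left out (adjusted p = 0.0164 to 0.0478), whereas without the block and without WT replicate 1 the log2 difference was -0.0733. With the block the call was lost when the filter on low FPKM was dropped (adjusted p = 0.0741) and for each clone alone (0.0550 in 1#, 0.0566 in 2#). FERMT3 (chr11:64206678-64223886 in GENCODE, GRCh38) overlaps TRPT1 on the other strand, which went the other way between numbers, with 35.01 and 17.5 FPKM in WT and 16.9 to 31.96 in MSX2-/- cells. Without a stated use of strand the FERMT3 value is uncertain too.

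ARHGAP6, a GTPase-activating protein, had 1.32 and 2.74 FPKM in WT, 3.09 and 4.39 in 1#, and 3.67 and 5.51 in 2#. All MSX2-/- libraries lay above both WT libraries, with a log2 difference of 0.79 (SE 0.28, adjusted p = 0.316, 0.0257 with the block). The blocked call was kept without 1# replicate 2 and lost without each of the other 5 libraries (adjusted p up to 0.144). RGS18, a regulator of G protein signalling in platelets, had 0.561 and 0.609 FPKM in WT, 0.733 and 1.98 in 1#, and 0.704 and 0.800 in 2#, and its separation from WT was wide in 1# replicate 2 alone. PLEK, the protein kinase C substrate pleckstrin, had 2.26 and 1.06 FPKM in WT, 0.578 and 0.255 in 1#, and 1.48 and 0.141 in 2#. It was below WT within both numbers and did not pass (log2 difference -0.75, 95% interval -1.63 to 0.12, adjusted p = 0.514, 0.0856 with the block). NBEAL2, the gene of gray platelet syndrome, which alpha granules need, differed by -0.06 (95% interval -0.60 to 0.49), and RAB27B, a GTPase of granule secretion, by -0.02 (95% interval -0.99 to 0.96). NBEAL2 overlaps CCDC12 on the other strand, which stood at 30.1 and 35.6 FPKM in WT and at 27.7 to 39.6 in MSX2-/- cells. The use of strand is not stated, so the NBEAL2 value is uncertain.

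TUBB1 was not tested, and its MSX2-/- values of 0.304 to 0.644 FPKM lay above the 0.269 and 0.274 of WT. BIN2, a membrane-curving protein of blood cells, was listed at 0 in 3 libraries and did not exceed 0.188 FPKM. THPO encodes thrombopoietin, the cytokine of the lineage, which liver makes. It stood at 0.222 and 0.107 FPKM in WT and 0.149 to 0.543 in MSX2-/- cells and was not tested. THPO overlaps CHRD on the other strand, which had 0.776 and 1.45 FPKM in WT and 2.20 to 2.58 in MSX2-/- cells, so the THPO value is uncertain as well. ESAM-AS1, an antisense RNA at chr11:124759129-124765936 (GRCh38), had 1.02 and 1.99 FPKM in WT, 0.725 and 1.20 in 1#, and 0.540 and 0.566 in 2#. It was lower than WT within each number and did not pass (log2 difference -0.50, adjusted p = 0.525, 0.184 with the block). ESAM, an endothelial adhesion gene on the opposite strand, stood at 318 and 429 FPKM in WT and 197 to 339 in MSX2-/- cells, and without a stated use of strand the reads of the pair cannot be told apart.

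**Figure D3:**
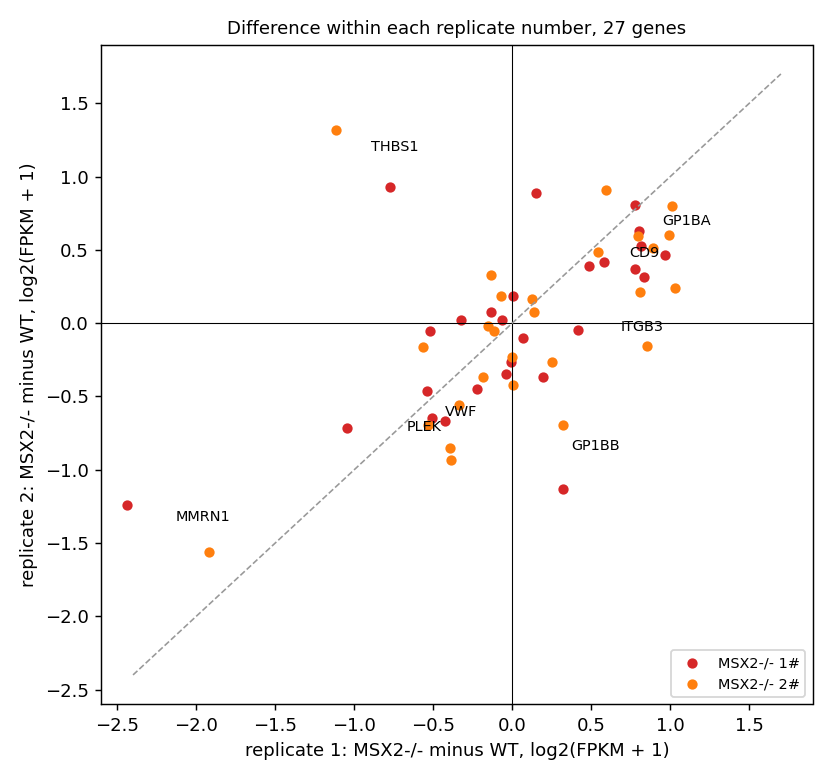
Difference between MSX2-/- and WT in log2(FPKM + 1) within replicate 1 (horizontal axis) and within replicate 2 (vertical axis), with a red and an orange point for clones 1# and 2# of each of the 27 genes. Names are written near the middle of the pair for THBS1, GP1BB, ITGB3, MMRN1, GP1BA, VWF, PLEK and CD9 only. MMRN1 stands at the lower left, GP1BA and CD9 among the genes at the upper right, and THBS1, ITGB3 and GP1BB in the quadrants where the numbers disagree, beside the dashed line of equal differences.

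The clones were compared with WT and with each other in a fit of 3 groups. Against WT, 0 of the 27 genes passed for 1# and 0 for 2# (0.00629% of all genes tested in each), with 3 and 4 genes at an unadjusted p under 0.05 (7.37% and 7.43% of all genes). With the block MMRN1 passed in 1# (adjusted p = 0.0375, 3.46% of all genes tested) and in 2# (adjusted p = 0.0402, 3.71%). The fit found 0 genes of the 27 that differed between 1# and 2# (0% of all genes tested), also with the block, and 0 at an unadjusted p under 0.05. For MMRN1 the difference of 2# minus 1# was 0.10 on the log2 scale (95% interval -0.67 to 0.87), and for ITGA2B it was 0.20 (95% interval -0.44 to 0.84). The first interval does not reach the size of the MMRN1 difference from WT, and the second includes that of ITGA2B.

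Other genes of the lineage were counted by lists written with earlier results of these data known. Beside each list from here on, 0.963% of all genes tested rose and 0.321% fell without the block. With the block 6.11% of all genes tested rose and 3.74% fell. Without the block 11.8% had an unadjusted p under 0.05. Of 20 regulators tested, 2 rose without the block, and 8 rose and 1 fell with it. The median log2 difference of the list was 0.23. NFE2, a late megakaryocyte and erythroid factor, had 11.2 and 12.2 FPKM in WT and 30.3 to 35.6 in MSX2-/- cells (log2 difference 1.40, adjusted p = 0.0110, 0.00153 with the block). GATA1, the erythro-megakaryocytic factor, had 7.68 and 8.90 FPKM in WT and 17.5 to 20.8 in MSX2-/- cells (log2 difference 1.15, adjusted p = 0.0220, 0.00261 with the block). The groups did not overlap for either. RUNX1 and GFI1B passed with the block only, with log2 differences of 1.25 and 1.17 (adjusted p = 0.00163 and 0.00290).

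Of 34 platelet signalling genes tested, 3 rose without the block and 9 with it, and none fell in either fit. PTGS1, the cyclooxygenase of thromboxane synthesis, had 3.12 and 5.87 FPKM in WT and 14.8 to 21.4 in MSX2-/- cells (log2 difference 1.84, adjusted p = 0.0323). MPIG6B, an inhibitory receptor of the lineage, had 3.15 and 2.81 FPKM in WT and 9.37 to 12.5 in MSX2-/- cells (log2 difference 1.57, adjusted p = 0.0152). CMTM5 rose as well (log2 difference 1.43, adjusted p = 0.0391), and ITGA6, the laminin receptor α6 chain, passed with the block only (log2 difference 1.18, adjusted p = 0.00446). The median of that list was 0.17.

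Of 30 granule genes tested, 1 rose without the block and 8 with it, with a median log2 difference of 0.02. PDGFB, a growth factor of alpha granules that endothelial cells also make, had 16.2 and 24.0 FPKM in WT and 60.2 to 82.5 in MSX2-/- cells (log2 difference 1.85, adjusted p = 0.0152). With the block PDGFA (log2 difference 1.38, adjusted p = 0.00446), UNC13D, a priming factor of granule release (0.87, 0.0430), and ABCC4, a nucleotide transporter (0.78, 0.00799), passed too. Of 20 cytoskeletal genes, 0 passed without the block, 7 with an unadjusted p under 0.05, and 5 rose and 1 fell with it. Those with the largest differences were MYLK, SPTB, TPM1 and ACTN1, at log2 differences of 1.14, 0.83, 0.76 and 0.61.

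Markers of other cells also moved between the groups. Of 14 erythroid markers tested, 5 rose in both fits (ALAS2, the first enzyme of heme synthesis in erythroid cells, with a log2 difference of 2.64, adjusted p = 0.0152), with AHSP at 0 in all libraries and a summed expression of 144 to 176 FPKM in WT and 302 to 679 in MSX2-/- cells. Of 10 mesenchymal markers 3 rose without the block and 5 with it, and their sums overlapped (967 to 1317 FPKM in WT, 1127 to 1299 in MSX2-/- cells). The median log2 difference of that list was 0.59, with 7 positive and 3 negative. The 3 that rose without the block were COL1A1, TAGLN and CNN1, at log2 differences of 2.30, 1.94 and 1.53, and their groups did not overlap. Of 10 myeloid and leukocyte markers none passed without the block (3 at an unadjusted p under 0.05), and 2 rose and 1 fell with it, at sums of 49.5 to 68.0 and 62.3 to 76.6 FPKM with ELANE at 0 throughout. Of 10 hepatic markers 0 passed in either fit (0 at an unadjusted p under 0.05), with sums of 135 to 232 FPKM in WT and 15.2 to 427 in MSX2-/- cells, lowest in 2# replicate 2. In the fit of 3 groups, 4 of these 10 differed between 1# and 2# at an unadjusted p under 0.05 (1.42% of all genes tested). ALB had 20.7 and 44.8 FPKM in WT, 122 and 125 in 1#, and 15.3 and 0 in 2#. Of 5 pluripotency markers 1 rose with the block, with sums of 69.9 to 89.3 and 83.5 to 104 FPKM. The part of these cells in the differences of the 35 genes was not tested.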

How the data were processed

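The authors deposited 1 table of FPKM values with a column per library, 58364 lines with values and 1 without. The series' design text names BWA with ANOVA, and TopHat with Cufflinks, and the submitters' processing notes name BWA, Bowtie, RSEM and hg19 without roles, versions or the use of strand, and the closing line of the table reads like Cufflinks output. FPKM values hold no depth, and how multi-mapped reads were divided is not given in the sources used here. The columns name clones 1# and 2#, whereas the sample titles number them otherwise, so the column names were used.

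Members were matched by symbol, and where a symbol had several lines the highest mean was used. Differences were tested with limma 3.58.1 (R 4.3.3; trended empirical Bayes, two-sided, Benjamini-Hochberg over 15895 genes) on log2(FPKM + 1), which understates changes of low genes. The main comparison had no block, as the study's methods name none. As alternatives, the number entered as a block, 0.1 was added in place of 1, the filter was dropped, libraries were rescaled, lines of a symbol were summed, 3 groups were fitted and each library was left out. The replicate number was checked by correlating the replicate 2 minus replicate 1 differences across 15895 genes (WT with 1# r = 0.508, WT with 2# r = 0.540, 1# with 2# r = 0.636, a description). With 2 against 4 libraries the smallest exact permutation p is 0.0667. The fits of MSX2-/- against WT, without and with the block, were run on simulated data.

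The members and lists were chosen with earlier results of these data known. Genes named from other lists were taken from those with the largest differences that passed without the block, then with it, up to 4 per list. Not all of these are named. ALB, from a list in which no gene passed, was among the genes of that list with the highest mean FPKM. PECAM1, ESAM, AHSP and ELANE were named outside this rule. Gene positions are from GENCODE (GRCh38), and 54894 of the 56595 symbols of the table matched it. Figures were drawn with matplotlib 3.10.9.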

Additional observations from a re-analysis of the deposited data

Results flagged for a closer look

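For 3 of the 27 genes, both clones moved one way in replicate 1 and the other way in replicate 2, as 17.8% of all genes tested did. The MSX2-/- difference in replicate 2 minus that in replicate 1 was 2.07 on the log2 scale for THBS1, -1.23 for GP1BB and -0.74 for ITGB3. The limma interaction of genotype and number gave adjusted p values of 0.314, 0.380 and 0.460, and 0 of the 27 genes passed it (0.0189% of all genes tested, and 5 of 27 at an unadjusted p under 0.05 beside 11.4% of all genes). RGS18 had 1 library that stood apart from the other MSX2-/- libraries, 1# replicate 2, at 1.98 FPKM, with a gap of 0.925 of the range. Chance alone takes about 1 in 20 groups past the limit used for such gaps, and 27 genes were looked at.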

How the results depend on the processing

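A replicate block moved several counts. All genes higher rose from 153 to 971 and all genes lower from 51 to 595, members higher went from 0 to 5 and lower from 1 to 3, and each clone gained 1 member against WT. The labels do not explain the number, so the pairing rests on the shared numbers. Without the filter 65 genes were higher, 60 genes were lower and 0 members were lower. Without the filter but with the block 309 of all genes were higher and 198 lower. With 3 groups 4 genes were higher, 2 lower and 0 members lower. Without the filter the interaction had 2 members, PPBP and F13A1, both under 0.4 FPKM. In the blocked fit, added after seeing the data, no filter left 0 members higher and 1 lower.

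Leaving out 1 library at a time gave 7 to 51 genes higher, 4 to 25 lower and 0 to 0 members lower, and with the block 1 to 2 members higher and 1 to 2 lower. In the blocked fit FERMT3 passed in 6 of 6, MMRN1 in 5, VWF in 3 (lost without WT replicate 2, 1# replicate 2 or 2# replicate 2), GP1BA in 2 (kept without WT replicate 2 or 2# replicate 1), F2RL3 in 1 (kept without 2# replicate 2), ARHGAP6 in 1 (kept without 1# replicate 2), and CD9 and P2RY1 in 0. MMRN1 had an adjusted p of 0.0793 without the filter, 0.0628 without it but with the block and 0.105 with 3 groups.

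The sign of the difference turned for 10 of the 27 genes, by leaving out a library only. The log2 difference ranged from -1.20 to 0.60 for GP1BB, -0.51 to 0.37 for ITGA2, -0.0928 to 0.15 for SELP, -0.32 to 0.50 for THBS1, -0.16 to 0.35 for PEAR1, -0.0167 to 1.501 for F2RL3, -0.23 to 0.0732 for SRGN, -0.49 to 0.46 for RAB27B, -0.35 to 0.23 for NBEAL2 and -0.0733 to 1.49 for FERMT3. The other 17 genes kept their sign under every alternative. The causes were not tested. Depth is unknown and limits the 8 genes under 0.5 FPKM most.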
